A study of Drosophila melanogaster with 3 samples.

Results

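The translation factors and tRNA synthetases of Drosophila melanogaster were examined for peaks of the GFP-tagged transcription factor sv. The genes were taken by symbol from the protein-coding genes of the Ensembl annotation: symbols starting with eIF, eEF or eRF, and symbols ending in RS or RS-m. The rule found 89 of 13945 protein-coding genes, of which 44 encode initiation factors, 10 elongation and release factors, 20 cytosolic synthetases and 15 mitochondrial synthetases. The rule used no measured value.

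The data are peak lists of chromatin immunoprecipitation with sequencing (ChIP-seq) from whole larvae of the strain sv-GFP at the third instar, in the wandering stage, with males and females pooled. The line stably carries sv-RD, an isoform of sv, with GFP fused to its C-terminus, and the labels give no other genotype, treatment or age. There were 3 biological replicates and 1 group, so no contrast between conditions exists, and no p-value is given. The labels name an antibody against GFP in their descriptions and sv in their antibody field. The peaks are those of a whole animal, so binding in few cells and weak binding in many cells cannot be told apart.

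The protein sv is a transcription factor of the Pax family, which binds DNA through a paired domain and is known for its roles in the sensory bristle and in the cone cells of the eye. Initiation factors bring the ribosome to the start codon, elongation factors carry tRNAs and move the ribosome along the mRNA, and release factors end the chain at the stop codon. Aminoacyl-tRNA synthetases load each tRNA with its amino acid, and for many amino acids mitochondria have an enzyme of their own, encoded in the nucleus. The cytosolic and mitochondrial classes here follow the gene symbol alone. Most of these genes are expressed in every growing cell, and the larva grows mainly by making protein.

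The sequences around 7 of the 10 highest-ranked summits near a start of the gene itself are given to show the DNA under these peaks. Those of eIF6 and eIF3c are not shown here, nor is that of SerRS, whose summit lies in an exon. Each is the window of 50 bp on each side of the summit, in dm6 from the Release 6 assembly, 5′ to 3′ in the direction of the gene; annotated exons are left out, which cut the eEF1gamma window to 68 bases. Capitals mark matches to the promoter motifs searched (DRE, TATA box, E-box). The positions are chr3R:23958496-23958596 (minus strand) for GluProRS, chr3R:24109178-24109278 (minus) for eIF4EHP, chr3R:29220104-29220171 (plus) for eEF1gamma and chr3L:3223005-3223105 (plus) for eIF1. They are chr2L:12103498-12103598 (plus) for ThrRS, chr3L:20348226-20348326 (plus) for eRF1 and chr3L:22288509-22288609 (plus) for IleRS.
GluProRS: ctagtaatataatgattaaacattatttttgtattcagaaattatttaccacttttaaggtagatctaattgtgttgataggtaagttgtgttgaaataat
eIF4EHP: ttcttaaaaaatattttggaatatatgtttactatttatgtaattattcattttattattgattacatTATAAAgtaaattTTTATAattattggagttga
eEF1gamma: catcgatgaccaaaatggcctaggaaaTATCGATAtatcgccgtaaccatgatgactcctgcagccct
eIF1: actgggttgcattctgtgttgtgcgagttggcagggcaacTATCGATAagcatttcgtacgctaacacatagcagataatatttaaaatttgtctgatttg
ThrRS: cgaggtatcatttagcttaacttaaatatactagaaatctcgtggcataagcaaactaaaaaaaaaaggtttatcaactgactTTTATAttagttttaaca
eRF1: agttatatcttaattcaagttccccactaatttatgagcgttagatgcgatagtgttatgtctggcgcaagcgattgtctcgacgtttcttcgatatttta
IleRS: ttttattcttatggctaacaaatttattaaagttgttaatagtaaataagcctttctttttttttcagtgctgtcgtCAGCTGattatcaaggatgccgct

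The GluProRS, eIF4EHP, ThrRS and IleRS windows are rich in A and T, with a GC content of 22.8%, 13.9%, 26.7% and 30.7%. The eEF1gamma and eIF1 windows, at 47.1% and 39.6%, each hold a DRE, the site of the promoter factor DREF. The eRF1 window, at 37.6%, holds none of the motifs. Over the 31 windows of member summits near an own start the median GC content was 35.6%, the same as over the 2159 optimal summits near any protein-coding start.

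The optimal set, thresholded by the authors on reproducibility between replicates, held 3823 peaks with a deposited signal of 72.6 to 2018 and a median of 114. Rank 1 is the peak of highest signal. The lists give no read counts, which leaves the depth unknown, and peaks carry no counting interval. Each replicate list held 29999 to 30000 peaks on the 6 chromosome arms used, so replicate counts were taken from the 3823 strongest of each. Signals differ in scale between lists, with a median of 12.6, 9.13 and 10.2 in replicates 1, 2 and 3, and are compared only within a list.

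Summits lay at 36 of the 89 translation genes (40.4%), counting the gene body and 2 kb upstream, while 26.9% of all protein-coding genes held one. A summit within 500 bp of a start of the gene itself was found at 31 of the 89 (34.8%), against 19.5% of all protein-coding genes. The classes differed: 6 of 10 elongation and release factors (60%) and 11 of 20 cytosolic synthetases (55%) held a summit, as did 17 of 44 initiation factors (38.6%) and 2 of 15 mitochondrial synthetases (13.3%). Where a summit was present, the strongest had a median rank of 1042 at translation genes and 1574 at all protein-coding genes. The 1911 strongest optimal peaks held the strongest summit of 24 of the 36 genes (66.7%), against 59.5% of all protein-coding genes with a summit.

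In the replicates, 33, 42 and 34 of the translation genes held a summit, or 40.8% ± 5.54 (SD, n = 3), against 26.5% ± 0.976 of all protein-coding genes. The share was above that of all protein-coding genes in each replicate, with 37.1%, 47.2% and 38.2% against 25.6%, 26.5% and 27.5%. The gap of the means exceeded the SD between replicates. That SD describes variation between peak lists over the same genes, not variation from which genes make up a set. The difference between the gene sets was not tested. Near an own start the shares were 33.7% ± 3.89 for the translation genes and 19.1% ± 0.848 for all. In the optimal set, of the 4303 protein-coding genes whose span lies in the middle range of the translation genes (1700 to 4098 bp), 27% held a summit and 21.9% held it near an own start, against 40.4% and 34.8% of the translation genes.

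**Figure D1:**
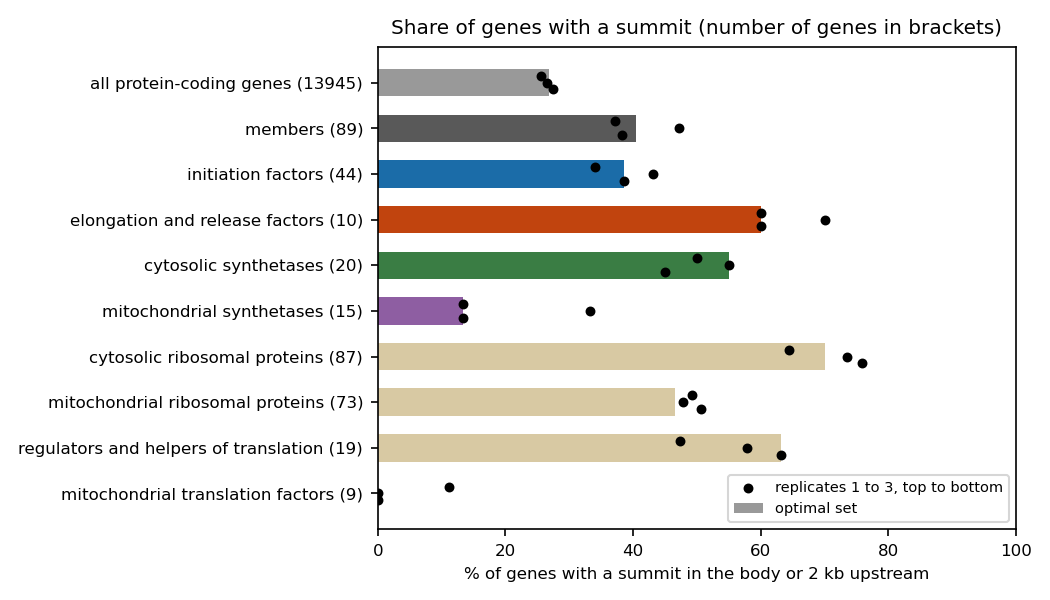
Percentage of genes with a summit (body plus 2 kb upstream), in the optimal set (bars) and in the 3823 strongest peaks of each replicate (points), with the number of genes in brackets. Cytosolic synthetases reached 50%, 55% and 45% in the 3 replicates, and mitochondrial synthetases 13.3%, 33.3% and 13.3%.

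Among the initiation factors, the strongest peaks lay at eIF2Bbeta, eIF6 and eIF4EHP, and 17 of 44 held a summit. eIF2Bbeta (FBgn0024996, X, 2704571 to 2706217) encodes a subunit of eIF2B, the exchange factor that recharges eIF2 with GTP. Its summit had rank 6 in the optimal set, with a signal of 1089.96, at rank 8, 6 and 3 in replicates 1, 2 and 3 (signals 440.29, 295.2 and 359.64). It ranked near the top of every list, but it lay 666 bp upstream of eIF2Bbeta and 53 bp from a start of Ugalt, a UDP-galactose transporter gene.

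eIF6 (FBgn0034915, 2R, 23849246 to 23850301) encodes the factor that keeps free large ribosomal subunits from joining small ones. Its summit had rank 71 and a signal of 518.44, and lay 104 bp upstream of its start, in an optimal peak from 23850214 to 23850587. The replicate signals were 207.58, 148.32 and 172.81, at ranks of 62 and 49 in replicates 2 and 3 and, in replicate 1, a rank weaker than these and than that in the optimal set. The next other start, that of ytr, was 668 bp away. This was the highest-ranked summit of the 89 genes that lay nearest to a start of the gene itself.

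eIF4EHP (FBgn0053100, 3R, 24063077 to 24108960) encodes a cap-binding protein that represses translation of its target mRNAs. It held 4 optimal summits, the strongest at rank 252 (signal 313.28) and 268 bp upstream of its start, with replicate ranks of 214, 326 and 270. That summit was 108 bp from the start of CG18428, and the other three lay in introns, at ranks 641, 2201 and 3499. eIF1 (FBgn0035423, 3L, 3223341 to 3224650), which keeps start codon choice accurate, held a summit at rank 328 (signal 279.33), at replicate ranks of 534, 235 and 272. It lay 286 bp upstream of eIF1 and 95 bp from the start of RpL28, a ribosomal protein gene, so the same peak serves both counts. A second eIF1 summit, 83 bp upstream, had rank 1386.

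Of the 16 genes for eIF3, the scaffold that binds the small ribosomal subunit, 4 held a summit (25%, against 26.9% of all protein-coding genes). They were eIF3d1, eIF3c, eIF3h and eIF3m, with a best rank of 586. The eIF3d1 peak (replicate ranks 460, 1065 and 709) lay 1280 bp upstream of the gene and 136 bp from a start of GILT2, so 3 of the 16 had a summit near an own start. At eIF3c the summit was 61 bp upstream (rank 739), at eIF3m 62 bp upstream (rank 2156), and at eIF3h 81 bp downstream of the start in a coding exon (rank 974).

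Of the 3 subunits of eIF2, which carries the initiator tRNA, eIF2beta alone held a summit (33.3%, rank 2556). Of the 5 subunits of eIF2B, eIF2Bbeta and eIF2Bgamma held one (40%), neither near an own start: the eIF2Bgamma peak (rank 714) was 1259 bp upstream and 33 bp from Vha36-1, a vacuolar ATPase subunit gene. The cap-binding eIF4E family had summits at 2 of 7 genes (28.6%), eIF4EHP and eIF4E1, the latter 105 bp downstream of a start at rank 2558. The helicase, scaffold and helper genes of the eIF4A, eIF4B, eIF4G and eIF4H group had summits at 2 of 6 (33.3%). Each of these groups is small, and no difference is drawn between its share and the 26.9% of all protein-coding genes. The genes with a summit in the last group were eIF4A (rank 2790) and eIF4G2 (rank 2899), the latter 1101 bp upstream and 254 bp from CG34355.

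Of the 7 initiation factor genes outside these groups, 6 held a summit (85.7%, against 26.9% of all protein-coding genes), each near an own start (19.5% of all). The group is what the others leave over, and its difference from them was not tested. Besides eIF6 and eIF1 these were eIF5B, which joins the ribosomal subunits, eIF2A, eIF1A and eIF2D. The strongest of the 4 eIF5B summits (rank 1473) was intronic, 27827 bp inside the gene, and another at rank 1983 lay 138 bp upstream of a start. The eIF2A summit (rank 2027) was 22 bp upstream of a start and that of eIF1A (rank 2252) 78 bp upstream. eIF2D held a pair of weak summits at ranks 3646 and 3647, the first 37 bp from the start of the proteasome gene Rpn2 and the second 145 bp upstream of eIF2D.

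**Figure D2:**
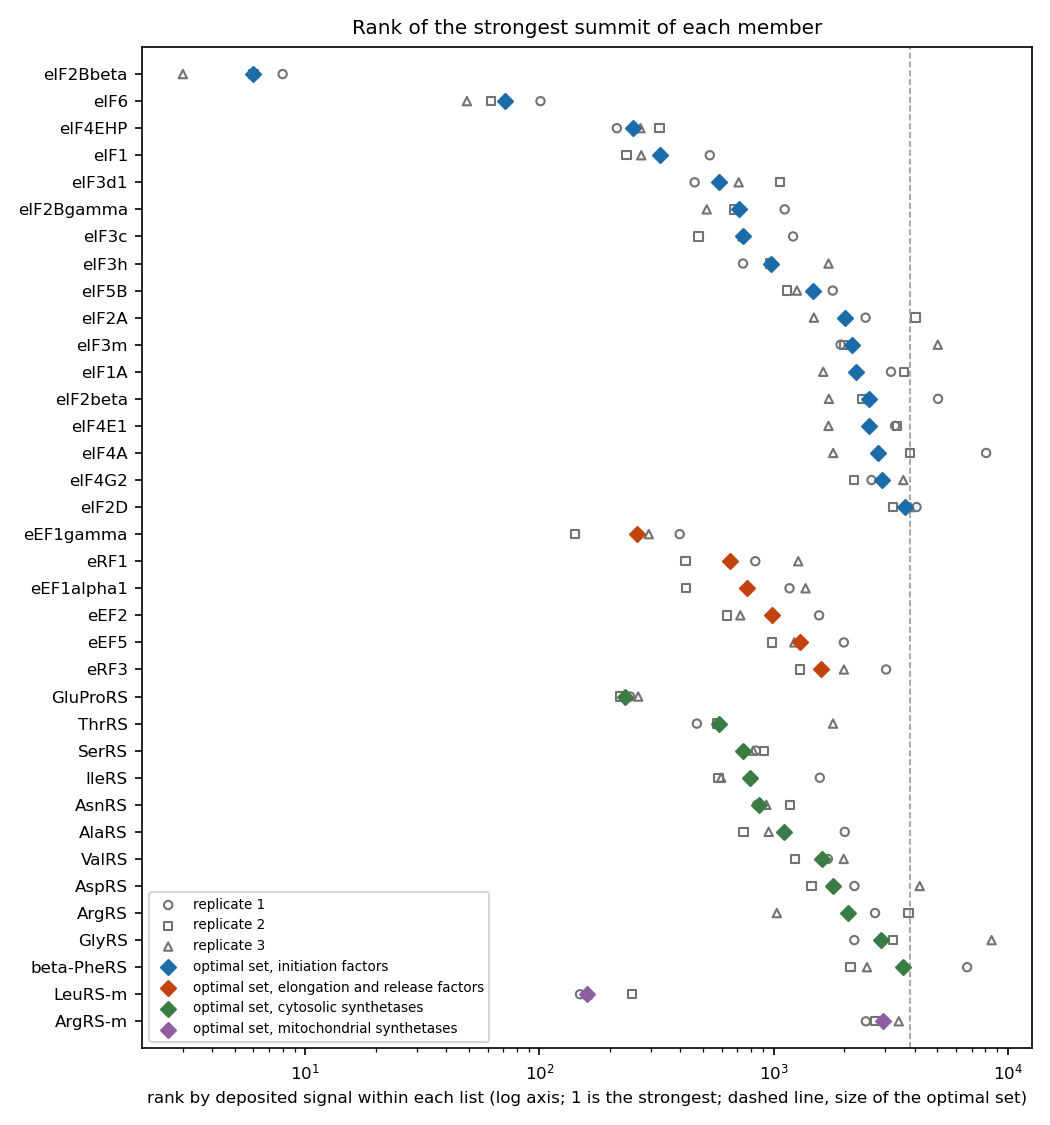
Rank by deposited signal, on a log axis, of the strongest summit of each of the 36 translation genes with one, in the optimal set (diamonds) and in each replicate list (open symbols). eIF2Bbeta stayed between rank 3 and rank 8 in the 3 replicates, while eIF4A and GlyRS reached rank 8083 in replicate 1 and rank 8527 in replicate 3.

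Each elongation or release factor gene with a summit had one close to a start. Of the 10 genes, 6 held a summit (60%, against 26.9% of all protein-coding genes). All 6 had one within 100 bp of an own start, against 35.6% of all genes with a summit near an own start. All 6 also had their strongest summit in the 1911 strongest peaks, against 59.5% of all genes with a summit. The class is small, and these differences were not tested. At eEF1alpha1 the close and the strongest summit were different ones, and the close one, at rank 2063 in an intron, was not among the 1911. eEF1gamma (FBgn0029176, 3R, 29220172 to 29222109), a subunit of the exchange complex of eEF1, had rank 260 (signal 309.72) and replicate ranks of 397, 142 and 293. Its summit lay 18 bp upstream of the start, with the nearest other start, that of Cisd2, 3274 bp away. The peak thus had no other start of a protein-coding gene near it.

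eRF1 (FBgn0036974, 3L, 20348355 to 20353873) recognises stop codons, and its summit lay 79 bp upstream of the start at rank 654 (signal 198.99). Its replicate ranks were 835, 420 and 1274. Its partner, the GTPase eRF3, had a summit 26 bp upstream at rank 1594 (replicate ranks 3022, 1300 and 1996), so both release factors were marked in every replicate.

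eEF1alpha1, which delivers loaded tRNAs to the ribosome, held 3 summits. The strongest, at rank 767 (replicate ranks 1169, 422 and 1369), lay 1438 bp upstream and 1282 bp from ERp60, and the one at rank 2063 was 45 bp upstream of a start. eEF2, which moves the ribosome along the mRNA, had its summit 13 bp inside the transcript in the 5′ UTR, at rank 982 (replicate ranks 1564, 633 and 721). eEF5, which helps ribosomes past stalls, had its summit 49 bp upstream at rank 1298. The genes eEF1alpha2, eEF1beta, eEF1delta and eEFSec, the selenocysteine-specific factor, held no optimal summit.

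Cytosolic synthetases held summits at 11 of 20 genes, and all 11 had a summit within 500 bp of an own start. GluProRS (FBgn0005674, 3R, 23952136 to 23958391), which joins 2 synthetase activities in 1 protein, was the strongest at rank 233 (signal 321.38). Its replicate ranks of 244, 222 and 264 were close together. The summit lay 155 bp upstream of GluProRS and 105 bp from the start of AP-1sigma, a clathrin adaptor gene.

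ThrRS (FBgn0027081, 2L, 12103751 to 12107170) followed at rank 583 (signal 211.7), 203 bp upstream, with replicate ranks of 470, 574 and 1794. Replicate 3 ranked it lower than the other two did. SerRS (FBgn0031497, 2L, 3035493 to 3037403) was next at rank 737 (signal 188.25), 55 bp inside the 5′ UTR, with replicate ranks of 841, 909 and 818.

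IleRS (rank 795) and AsnRS (rank 867) had their strongest summits 106 and 78 bp upstream. AsnRS held 2 further summits, of which that at rank 1597 was 139 bp from brat, a growth regulator gene. AlaRS had a summit at rank 1103, 10 bp from a start of CG13392, and a weaker one at rank 2684 that lay 67 bp upstream of AlaRS itself. ArgRS (rank 2079) and beta-PheRS, a subunit of phenylalanyl-tRNA synthetase (rank 3576), had their summits 115 and 30 bp upstream. ValRS (rank 1608, Kdm4B), AspRS (rank 1799, Nmda1) and GlyRS (rank 2866, Plp) had theirs nearer to the start of the neighbour named.

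Mitochondrial synthetases held few summits: 2 of 15 in the optimal set, with 1 of them near an own start (6.67%). LeuRS-m (FBgn0027085, 3L, 4825853 to 4829038) had rank 160 (signal 374.82) and replicate ranks of 149, 248 and 161. The summit was 947 bp upstream of LeuRS-m and 781 bp from a start of Dhc64C, the cytoplasmic dynein heavy chain gene, so it lay near neither. ArgRS-m (FBgn0037526, 3R, 7887045 to 7890150) had its summit 118 bp upstream at rank 2935 (signal 86.44; replicate ranks 2478, 2724 and 3424).

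In the replicates 2, 5 and 2 mitochondrial synthetases held a summit, against 10, 11 and 9 cytosolic ones, so the shares of the 2 classes did not overlap between replicates. Of all protein-coding genes 25.6%, 26.5% and 27.5% held one. The mitochondrial share was below that of all genes in replicates 1 and 3 (13.3% in each) and above it in replicate 2 (33.3%). For 12 amino acids the genome has a cytosolic and a mitochondrial gene under matching symbols. In the optimal set, where 26.9% of all protein-coding genes held a summit, 6 pairs held one at the cytosolic gene alone (Ala, Asn, Asp, Ile, Ser and Val). A summit was at both genes in 1 pair (Arg), at the mitochondrial gene alone in 1 (Leu) and at neither in 4 (Cys, Met, Trp and Tyr). The pairs are made of genes already counted in the 2 classes, so they add no independent result, and they were not counted in the replicates.

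The 53 translation genes without an optimal summit were sought in the relaxed list of 30000 pooled peaks, which also holds background. A relaxed summit was present at 38 of them (71.7%), against 61.2% of all protein-coding genes without an optimal one. Their ranks ran from 4041 to 28336 with a median of 10027. The strongest were eIF3a (rank 4041), PheRS-m (4266) and AspRS-m (4299), 57, 152 and 33 bp upstream of their starts and just outside the optimal set. Among the initiation factors next came eIF2gamma (4359) and eIF2Bdelta (5762). The elongation factors gave eEF1delta (4336), eEF1beta (11057) and eEF1alpha2 (20427). The cytosolic synthetases began with alpha-PheRS (4556), MetRS (6410) and HisRS (8648), and the third mitochondrial one was ProRS-m (4653).

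All 9 cytosolic synthetases without an optimal summit had a relaxed one, as did 10 of 13 mitochondrial synthetases, 3 of 4 elongation factors and 16 of 27 initiation factors. In 2 cases neighbours shared a relaxed peak, TyrRS with GluRS-m and eIF2alpha with eIF4H1. The 15 genes without any summit were 11 initiation factors (eIF3d2, eIF3e, eIF3f2, eIF3g1, eIF3g2, eIF4B, eIF4E3, eIF4E4, eIF4E5, eIF4E7 and eIF4H2), eEFSec, AlaRS-m, AsnRS-m and ValRS-m. A gene without a listed peak is not shown to be unbound.

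**Figure D3:**
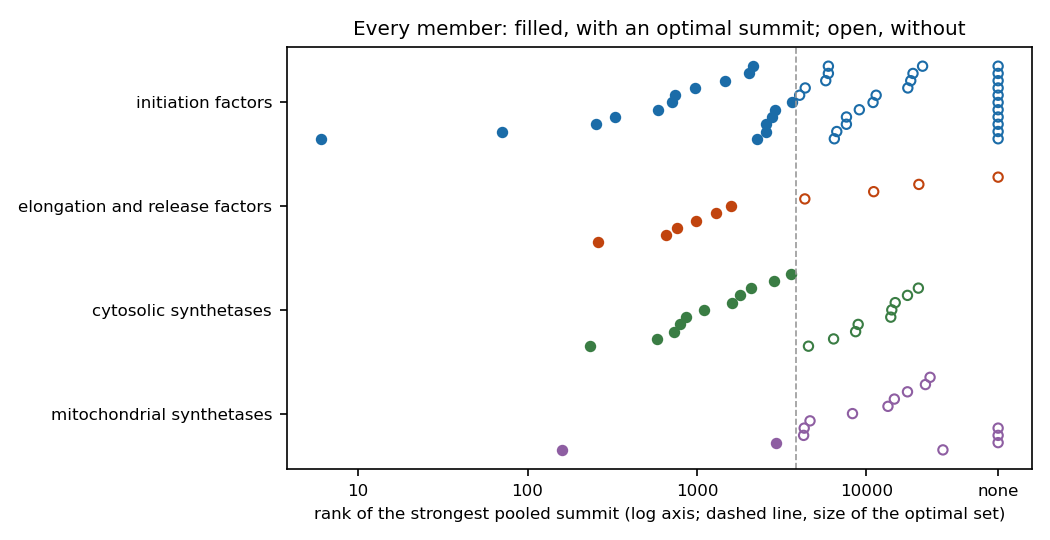
Rank of the strongest pooled summit of each of the 89 translation genes on a log axis, by class. Filled points are the 36 genes with an optimal summit, open points left of the last column the 38 with a relaxed one only, and the last column the 15 with none. The dashed line marks the 3823 peaks of the optimal set.

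The optimal set was thresholded on reproducibility between these same replicates, so recurrence of its summits was in part fixed in advance. The counts below describe the summits, and the same shares over all optimal summits were not computed. Of the strongest summits of the 36 genes, 28 were matched within 200 bp among the 3823 strongest peaks of all 3 replicates, 7 in 2 replicates and 1, that of eIF2D, in 1. Among the 24 in the 1911 strongest peaks, 23 were in all 3 replicates, against 5 of the 12 weaker ones. Peaks strong in the pooled reads tend to rank high in each replicate by construction. Replicate 2 held 7 translation genes that had no optimal summit (eEF1delta, PheRS-m, ProRS-m, TrpRS-m, eIF3a, eIF3f1 and eIF5), while replicates 1 and 3 held 1 each (eIF2gamma and eIF3a).

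Most of the strongest summits lay upstream of the gene, where the rule counts 2 kb. Of the strongest summits of the 36 genes, 28 were upstream of the annotated gene, 4 in a 5′ UTR, 1 in a coding exon, 1 in an exon of another transcript of the gene and 2 in introns. Not all of the 28 were close to the start, and that of eIF2D lay 1693 bp upstream. The same split over all genes with a summit was not computed. The 31 summits near an own start ran from 455 bp upstream to 105 bp downstream, with a median distance of 104 bp in either direction, against 137 bp for the 2714 such genes overall. Of the 31, 27 were at or upstream of the start (87.1%, against 89.8% overall), and 15 lay within 100 bp (48.4%, against 35.6%).

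**Figure D4:**
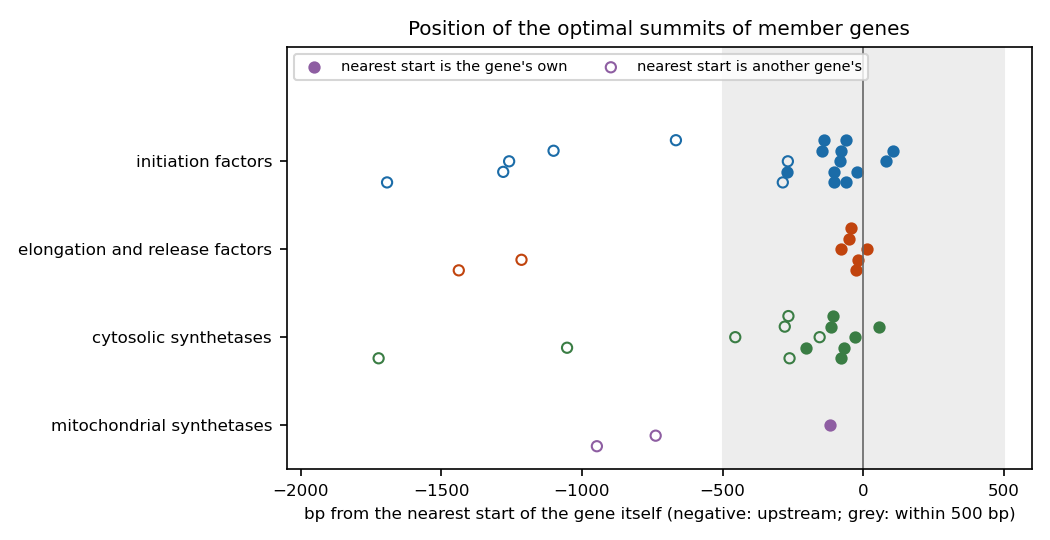
Distance in bp of the optimal summits from the nearest start of the gene itself, by class, for the summits within 2 kb; negative values are upstream and grey marks 500 bp on each side. Filled points are nearest to a start of the gene itself. The 6 elongation and release factors each have a filled point within 100 bp of the start.

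Many of the strongest summits lay nearer to a start of another gene, about as often as at all protein-coding genes with a summit. The nearest protein-coding start was the gene's own at 21 of the 36 strongest summits (58.3%), close to the 59.8% of all protein-coding genes with a summit. At 15 it was another gene's, and 10 of those 15 genes held a summit within 500 bp of a start of their own. At GluProRS, eIF4EHP, eIF1, ValRS, AspRS and GlyRS the strongest summit was itself that near. At eEF1alpha1, AlaRS, eIF5B and eIF2D a weaker summit was. The 5 that did not were eIF2Bbeta, LeuRS-m, eIF3d1, eIF2Bgamma and eIF4G2, so 3 of the 9 highest-ranked summits count for a translation gene only through the 2 kb window.

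Divergent promoters, in which the nearest other start lies within 1 kb on the opposite strand and points away, were frequent. They were present at 47 of the 89 translation genes (52.8%), against 31.6% of all protein-coding genes. Among divergent genes 46.8% of the translation genes and 41.9% of all genes held a summit, and among the others 33.3% and 19.9%. The part of this arrangement in the counts was not tested.

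Promoter motifs were counted in windows from 250 bases before to 50 after the start of the canonical transcript, 301 bases in all. Each motif was searched on both strands. The DRE, the site of the promoter factor DREF, was spelled TATCGATA. For the core of motif 1, which the promoter factor M1BP binds, the letters were GGTCACAC. The E-box, a site type of basic helix-loop-helix factors, was searched as CAGCTG. For the core promoter element known as the TATA box the letters were TATAAA. The element bound by the GAGA factor was searched as GAGAG. As a core of the sites that paired domains bind, the letters GTCACGC were taken. A TCT-type start (CTTTT within 10 bases of the start) was searched on the gene's strand. No motif contains another, and overlapping matches of different motifs were counted for each. Intervals below are exact (Clopper-Pearson) 95% binomial intervals over genes and cover counting error only.

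The DRE was present at 20 of the 89 promoters of translation genes (22.5%, 14.3 to 32.6), against 8.95% of all protein-coding promoters. It was at 9 of the 31 with a summit near an own start (29%, 14.2 to 48, against 14.3% of all such genes) and at 11 of the 58 without (19%, 9.87 to 31.4, against 7.65%). The share of all genes lay outside the interval for translation genes as a whole and for those without such a summit, and inside it for those with one. Its median position was 36 bp upstream of the start. Where a summit was present, it lay a median of 84 bp from the DRE. Within 50 bp of the summit the DRE was at 2 of the 31 (eEF1gamma and eIF1, printed above), or 6.45%, against 3.47% of all promoter summits. These summit windows are shorter than the promoter windows, so their share cannot be set against the 29% of the promoters.

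The E-box had a higher share in synthetases than in factors, a split noticed after the values were seen. It was at 10 of 20 cytosolic synthetase promoters (50%, 27.2 to 72.8) and 7 of 15 mitochondrial ones (46.7%, 21.3 to 73.4), against 4 of 54 factor promoters (7.41%) and 17.9% of all promoters. Among the synthetases, 5 of the 12 with a summit near an own start held the E-box and 12 of the 23 without. Over all protein-coding genes the E-box was at 24.2% of those with such a summit and at 16.4% of those without. The synthetase counts are small, and the difference between these splits was not tested. Its median position in the synthetases was 33 bp upstream of the start, and 1 of the 31 own-start summit windows held it (IleRS). The sites upstream of the start of 3 synthetases with such a summit are shown with 12 bases on each side in the direction of the gene (E-box in capitals). They lie at chrX:15844175-15844204 (minus strand), chr3L:22288574-22288603 (plus) and chr2L:3037515-3037544 (minus) in dm6.
ArgRS: gcgtgacatcacCAGCTGttatcgttatcg
IleRS: cagtgctgtcgtCAGCTGattatcaaggat
SerRS: gactattttgaaCAGCTGctaaaagcaagt

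The other motifs are given as shares of translation gene promoters and of all promoters. The motif 1 core was at 11.2% (5.52 to 19.7) of translation gene promoters and 7.54% of all, a difference within the interval. The TATA box was at 50.6% and 45.3%, and at 67.7% (48.6 to 83.3) of translation genes with a summit near an own start against 45.6% of all such genes. These letters were counted anywhere in the promoter window on either strand, so a match need not be a core promoter element. Within 50 bp of the summit they were at 19.4% of the summits near an own start, against 19.5% of all promoter summits. The GAGA element was at 14.6% (8.01 to 23.7) and 30.3%. The TCT-type start, known from ribosomal protein genes, was at 5.62% and 3.18%, while 28.7% of cytosolic ribosomal protein genes held it. The paired-domain core was at 2.25% (ArgRS and MetRS) and 1.51%, and at 0 of the 50 member summits, against 0.366% of all optimal summits. These letters are 1 short form of a longer site, and their absence says nothing of the factor.

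**Figure D5:**
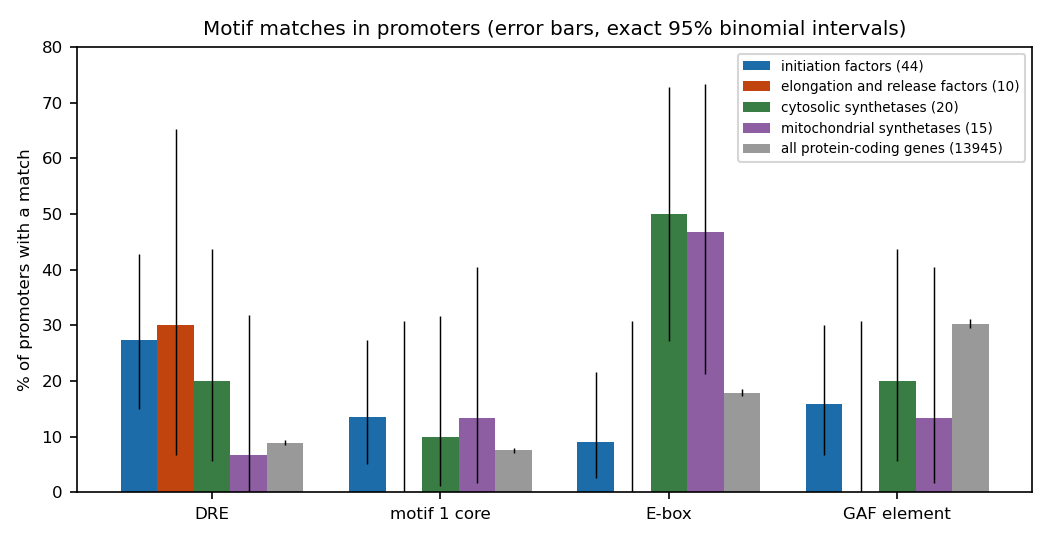
Percentage of promoters (301 bases) with a match to each of 4 motifs, by class and for all protein-coding genes, with exact 95% binomial intervals. The E-box reaches 50% in cytosolic and 46.7% in mitochondrial synthetases and 17.9% in all genes, and the DRE reaches 27.3% in initiation factors and 8.95% in all genes.

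The other genes of translation, listed by symbol, spanned the whole range. Of 87 cytosolic ribosomal protein genes 61 held a summit (70.1%), led by RpL7 (rank 102), RpL34b (124) and RpS27 (148). Of 73 mitochondrial ribosomal protein genes 34 did (46.6%), led by mRpL41 (18), mRpS23 (19) and mRpS10 (25), while 0 of 9 mitochondrial translation factors did. The 19 regulators and helpers had 12 (63.2%, against 26.9% of all protein-coding genes), and 9 of the 19 held a summit near an own start (47.4%, against 19.5%). These regulators and helpers had a median span of 6354 bp, against 2166 bp for all protein-coding genes, which widens the window counted. They were led by Lk6, the kinase of eIF4E, at rank 7 and 962 bp upstream, larp, an mRNA-binding protein gene, at rank 39, and Thor, the fly eIF4E-binding protein, at rank 1104 and 29 bp inside the gene. In the optimal set, the shares of initiation factors, elongation and release factors and cytosolic synthetases lay between all protein-coding genes and the cytosolic ribosomal protein genes. The share of the mitochondrial synthetases lay below both there, but above that of all protein-coding genes in replicate 2.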

How the data were processed

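ChIP-seq was performed on 3 biological replicates, per the labels, with sonicated chromatin. Per the deposited file manifests, peaks were called per replicate and on the pooled alignments, with the same control for each. The software for alignment and peak calling and the reproducibility threshold were not given in the sources used here. The authors deposited a signal value for each peak, which was used only to rank peaks within a list, and a −log10 q-value, which was not used. The deposited summit offset, added to the peak's start, gave the summit. Depth is unknown. The dm3 lists were not used.

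Genes, starts and exons came from Ensembl release 115 (BDGP6.54), which has the coordinates of dm6, on 6 arms (X, 2L, 2R, 3L, 3R, 4). Positions count from 1. Genes were assigned summits in the body or 2 kb upstream, and near a start within 500 bp of any start of the gene itself. Replicate peaks within 200 bp were matched. Where a gene had no canonical transcript (1 gene), its most upstream start was used. Counting was tested on simulated peaks planted at known genes. Python 3.11.15, pandas 2.3.3, numpy 2.4.6, scipy 1.17.1 and matplotlib 3.10.9 were used.

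The genes and lists were chosen with earlier results of these data known. Named were the 10 highest-ranked genes, the 3 highest of each class, genes whose summit is nearer to a neighbour, the 3 strongest relaxed peaks of each class among genes without a summit, and up to 3 genes of each other list; any gene with an optimal summit could be named. Genes listed without any peak, with a shared relaxed peak or with a peak in a replicate alone were added after their values were seen. Alternatives covered the peak set, the windows, each replicate and leaving each out.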

Additional observations from a re-analysis of the deposited data

How the results depend on the processing

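Of 81 alternatives to the counts, shares and distances, 62 stayed within 1.5 times the count or within the spread between replicates and 19 moved. Counts were judged by the factor of 1.5. The share of all genes and the median distance were judged by the SD between replicates (0.976 and 18.6), so moved does not mean the same for both. Using the strongest 1911 optimal peaks gave 17 translation genes near an own start, 9 initiation factors, 1 mitochondrial synthetase, 16% of all protein-coding genes and a median distance of 179 bp, against 116 bp with all. With 7646 pooled peaks the values were 26 initiation factors, 5 mitochondrial synthetases and 40.5% of all genes. Replicate 1 gave 25.6% of all genes, and replicate 2 gave 5 mitochondrial synthetases and a median distance of 140 bp. With 500 bp upstream the values were 1 mitochondrial synthetase and 23.1% of all genes. With the nearest start deciding, they were 7 cytosolic synthetases, 1 mitochondrial synthetase and 16.7% of all genes. The share of the translation genes was 27% with the 1911 strongest peaks and 57.3% with 7646 pooled peaks. It was 34.8% with 500 bp upstream and 29.2% with the nearest start deciding. Leaving out a replicate in turn gave 20.4% to 20.7% of all genes and 29 to 31 translation genes. The cause was not tested, except that smaller or larger peak sets hold fewer or more genes by construction. With 50 bp around the summit in place of the longer promoter window, 1 of 6 motif shares stayed. The effect of window length was not separated. Depth is unknown, so what it limits cannot be given. No paired analysis was possible because the 3 replicates form 1 group.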
